A study of Arabidopsis thaliana with 54 samples.

Results

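AT5G52670, AT5G52710, AT5G52720, AT5G52740, AT5G52750 and AT5G52760 are 6 of the 34262 genes in the count files and belong to a tandem array of heavy-metal-associated domain genes on chromosome 5. AT5G52670 and AT5G52710 were chosen because they were among the genes with the largest increase after 30 min of CIF2 in wild-type roots, and the other 4 because they lie in the same array. The 30 min effect in wild type therefore describes the choice and was not tested, and the same holds for every difference that contains it. Only 3 of the 6 genes, AT5G52670, AT5G52710 and AT5G52750, reached 1 CPM (counts scaled to the TMM-adjusted library size) in at least 1 library and were among the 19668 genes tested. AT5G52720, AT5G52740 and AT5G52760 stayed below it in all 54 libraries and are given as counts.

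Whole roots of 5-day-old *Arabidopsis* Col-0 seedlings were sequenced 30, 120 or 480 min after transfer to fresh medium, which held either 100 nM CIF2 or no peptide. The 3 genotypes were *cif1 cif2* (*cif1-2 cif2-2*, CRISPR alleles of both peptide genes), *sgn3* (*sgn3-3*, a T-DNA insertion in the receptor gene, represented by this line alone) and wild type, and each of the 18 groups had 1 library from each of 3 batches. The aerial parts had been cut off, and the sources used here do not say how many roots went into a library. The 3 *cif1 cif2* libraries titled as CIF2-treated for 480 min carry a treatment label of no peptide and were grouped by their titles.

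CIF2 is a sulfated peptide that is made in the stele and is perceived in the endodermis by the receptor kinase SGN3 (also called GSO1), where it marks gaps in the Casparian strip, the lignin ring that seals the endodermal wall. The heavy-metal-associated domain is a small fold of metallochaperones such as ATX1, which carry copper to P-type ATPases, and it usually binds the metal through a pair of cysteines. In plants the fold has multiplied into the HIPP proteins, which add an isoprenylated cysteine at the C-terminal end that anchors them to membranes, and several of them are known for responses to metals, drought and pathogens. No individual role of the 6 genes in the root is known from the annotation, which calls AT5G52750 a heavy metal transport/detoxification superfamily protein and the others members of a copper transport protein family.

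In the TAIR10.1 annotation the array held 11 genes on the plus strand, between 21363486 and 21390189 on chromosome 5, a span of 26.7 kb with gaps of 419 to 3545 bases. Its other 5 genes, AT5G52680, AT5G52690, AT5G52700, AT5G52730 and AT5G52770, were not chosen and serve here as neighbours. AT5G52670 overlapped the antisense long non-coding RNA AT5G07905 at its 5′ end. AT5G07905 was listed at 0 in all 54 libraries, and since the sources used here do not say whether the counting took strand into account, reads of the overlap and hence the exact count of AT5G52670 are uncertain. Of the 50-base words in the exons of the array genes, 0 occurred elsewhere in the genome.

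**Figure D1:**
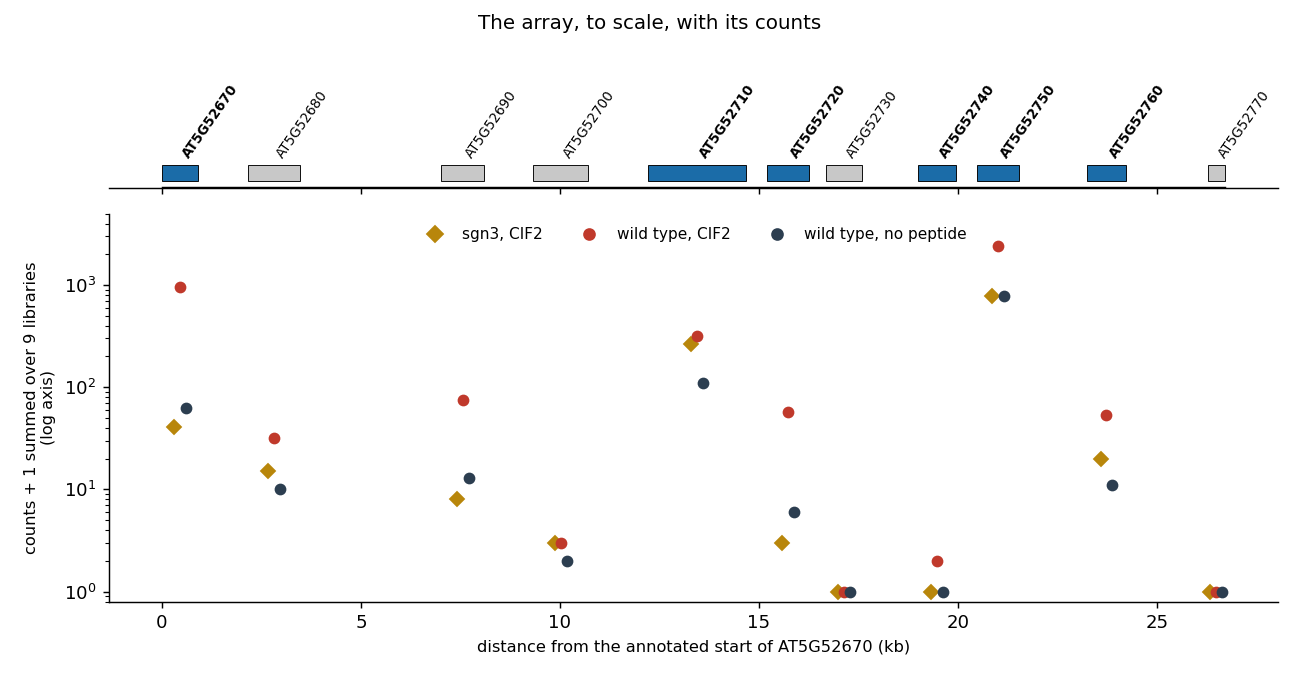
The 11 array genes drawn to scale by distance from the annotated start of AT5G52670 in kb (blue, the 6 genes described here; grey, the other 5), above the counts plus 1 summed over 9 libraries on a log axis in *sgn3* with CIF2 (diamonds), wild type with CIF2 (red) and wild type without peptide (dark). AT5G52750 had 2428 counts in CIF2-treated and 786 in untreated wild type, AT5G52670 had 952 and 61, and AT5G52730 and AT5G52770 had 0; the sums include the 30 min libraries of wild type on which the genes were chosen.

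The encoded proteins fell into 2 kinds by their ends. None of the 11 contained the metal-binding Cys-x-x-Cys pair. AT5G52720, AT5G52740, AT5G52750 and AT5G52760 ended with a cysteine 4 residues from the end, the position that is isoprenylated in HIPP proteins, and AT5G52670 and AT5G52710 did not. The last 30 coding bases before the stop codon show this, with the last 4 codons in capitals; TGT and TGC are the cysteine codons.
AT5G52670: taccgtggttggaatttgGGTTTCTTTAAG
AT5G52710: caaggccaaagttctaaaAAACCAGGAAAG
AT5G52720: ggcaaaaactcggatgagTGTATCATCCTG
AT5G52740: aatgaagatcccaacgctTGCGTCACCTCT
AT5G52750: gtaacggacgaatcaaatTGTGTGATTATG
AT5G52760: gtggtagacgaaccaaatTGTGTGATTATG
Only the proteins of the chosen genes were aligned with each other. Among them AT5G52750 and AT5G52760 were the closest pair, with 79.2% identical residues over 125 aligned, followed by AT5G52670 and AT5G52720 with 69.6% over 92. AT5G52710 was the longest protein, with 451 residues against 103 to 139 in the other 5.

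The same pairs shared stretches of promoter sequence (RefSeq TAIR10.1, plus strand, 250 bases before to 50 bases after the annotated start). They are printed as a description, and whether they have a part in the CIF2 effects was not tested. A run of 36 bases, in capitals, was shared by AT5G52670 and AT5G52720 and was present in 2 of 27443 promoters. Counted from the annotated start, it began at position −14 in AT5G52670 and −25 in AT5G52720 and ran past the start in both.
AT5G52670, chr5:21363236-21363535: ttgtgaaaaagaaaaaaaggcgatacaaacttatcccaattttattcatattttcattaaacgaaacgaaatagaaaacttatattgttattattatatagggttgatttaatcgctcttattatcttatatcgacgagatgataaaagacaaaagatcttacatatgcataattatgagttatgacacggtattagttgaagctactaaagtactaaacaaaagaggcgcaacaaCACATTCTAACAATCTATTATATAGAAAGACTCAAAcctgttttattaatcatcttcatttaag
AT5G52720, chr5:21378452-21378751: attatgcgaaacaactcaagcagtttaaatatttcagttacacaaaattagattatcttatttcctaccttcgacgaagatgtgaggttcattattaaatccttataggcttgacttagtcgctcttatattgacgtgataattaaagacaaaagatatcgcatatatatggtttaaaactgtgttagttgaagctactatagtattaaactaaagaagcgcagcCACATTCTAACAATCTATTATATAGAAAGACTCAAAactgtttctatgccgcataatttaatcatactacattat
Of this run, 24 bases recurred in AT5G52710, where they began at position −170 and are in capitals; 3 promoters held them.
AT5G52710, chr5:21375454-21375753: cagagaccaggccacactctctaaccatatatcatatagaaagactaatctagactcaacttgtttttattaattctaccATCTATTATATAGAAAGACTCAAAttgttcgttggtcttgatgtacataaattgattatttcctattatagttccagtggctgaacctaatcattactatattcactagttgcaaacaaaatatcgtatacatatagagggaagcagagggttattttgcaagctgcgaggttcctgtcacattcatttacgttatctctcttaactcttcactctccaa
AT5G52750 and AT5G52760 shared another run of 15 bases, in capitals, which was present in 2 promoters.
AT5G52750, chr5:21383729-21384028: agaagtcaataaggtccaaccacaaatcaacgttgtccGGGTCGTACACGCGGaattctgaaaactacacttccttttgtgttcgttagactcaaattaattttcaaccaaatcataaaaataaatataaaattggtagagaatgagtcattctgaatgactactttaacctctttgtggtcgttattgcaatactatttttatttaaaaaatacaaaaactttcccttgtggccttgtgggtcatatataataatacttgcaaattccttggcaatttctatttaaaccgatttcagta
AT5G52760, chr5:21386477-21386776: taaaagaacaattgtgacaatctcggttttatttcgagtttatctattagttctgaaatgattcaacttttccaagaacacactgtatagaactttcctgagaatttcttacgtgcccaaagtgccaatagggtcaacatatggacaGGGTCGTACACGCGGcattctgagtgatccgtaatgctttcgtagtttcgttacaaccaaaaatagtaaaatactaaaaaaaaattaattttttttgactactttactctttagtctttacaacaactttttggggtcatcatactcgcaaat
The core of the WRKY-binding W-box, TTGAC on either strand, was found in AT5G52720, AT5G52750 and AT5G52760, beside 50.5% of all promoters, and the TGA-factor core TGACG in AT5G52720 alone, where it overlaps a TTGAC, beside 23.1%. The palindrome GTAC, the core of copper response elements, was found in AT5G52670, AT5G52710, AT5G52750 and AT5G52760, beside 39% of all promoters. The window of AT5G52740 held none of the 3 motifs.

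AT5G52670 had the largest log2 fold change with CIF2 of the 3 tested genes at 30 and 120 min in *cif1 cif2*. In whole-root RNA, more responding cells and more RNA per cell cannot be told apart. In *cif1 cif2* at 30 min it had 8.23, 8.71 and 6.0 CPM with CIF2 in batches 1, 2 and 3, against 0.430, 0.367 and 0.476 CPM without peptide. At 120 min the values were 4.20, 5.73 and 2.60 CPM with CIF2 and 0.276, 0.182 and 0.193 CPM without. All treated libraries lay above all untreated ones at both time points, and batch 3 was the lowest treated library each time. The gene rose with CIF2 in *cif1 cif2* in 3 of 3 batches at both times. Its log2 fold change was 4.19 ± 0.29 (SE) after 30 min (edgeR quasi-likelihood test, Benjamini–Hochberg adjusted *P* = 6.0e-15) and 4.21 ± 0.35 after 120 min (adjusted *P* = 1.1e-12).

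In wild type AT5G52670 had 7.68, 6.28 and 4.21 CPM with CIF2 at 30 min, against 0.178, 0.446 and 0.335 CPM without peptide, which is 558 against 25 counts in all. This is the effect the gene was chosen for, at a log2 fold change of 4.19 ± 0.32. At 120 min, in libraries that the choice did not use, it had 3.20, 5.68 and 2.76 CPM with CIF2 and 0.231, 0.256 and 0.208 CPM without. The groups were again separate, and the gene rose in 3 of 3 batches, with a log2 fold change of 4.0 ± 0.34 (edgeR, adjusted *P* = 4.9e-12). AT5G52670 passed the filter of 1 CPM only through its CIF2-treated *cif1 cif2* and wild-type libraries, since no untreated or *sgn3* library reached it.

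At 480 min little of this was left. AT5G52670 had 0.741, 1.06 and 0.121 CPM in *cif1 cif2* with CIF2, against 0.155, 0.108 and 0.236 CPM without peptide. The batch 3 library of the treated group, with 3 counts, lay within the untreated range, while the other 2 lay above it. The log2 fold change of 1.90 ± 0.50 passed the test over all 3 batches (edgeR, adjusted *P* = 0.0074) but was 1.16 without batch 2 (adjusted *P* = 0.33) and 1.74 without batch 1 (adjusted *P* = 0.17), against 2.74 without batch 3 (adjusted *P* = 0.0016). In wild type the values were 0.596, 0.558 and 0.175 CPM with CIF2 and 0.235, 0.0391 and 0.213 CPM without, which overlapped, and the log2 fold change of 1.33 ± 0.55 did not pass the test (adjusted *P* = 0.13). The CIF2 effect in *cif1 cif2* was smaller at 480 than at 30 min (log2 difference −2.28 ± 0.72, edgeR adjusted *P* = 0.041), a difference that was past the threshold without batch 2 (adjusted *P* = 0.030) but not without batch 1 (0.22), batch 3 (0.37) or the batch block (0.16).

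AT5G52750 was the most abundant gene of the array, at a mean of 5.34 CPM per kb of exon over all libraries against 1.96 for AT5G52670 and 0.595 for AT5G52710. With CIF2 it had 14.9, 15.7 and 12.6 CPM in *cif1 cif2* at 30 min, against 3.80, 3.94 and 4.79 CPM without. At 120 min it had 5.96, 6.92 and 4.43 CPM with CIF2 and 1.79, 2.48 and 2.51 CPM without. The values at 480 min were 7.06, 8.64 and 7.23 CPM with CIF2 and 2.44, 2.80 and 2.02 CPM without. The treated and untreated libraries were separate at every time point, and unlike AT5G52670 the gene had counts in every library of the series. Its log2 fold changes in *cif1 cif2* were 1.79 ± 0.15, 1.35 ± 0.18 and 1.66 ± 0.17 at 30, 120 and 480 min (edgeR, adjusted *P* = 1.9e-12, 1.5e-07 and 3.4e-10).

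In wild type AT5G52750 had 5.45, 5.58 and 4.16 CPM with CIF2 at 120 min and 2.77, 2.04 and 2.19 CPM without. After 480 min it had 7.89, 6.49 and 8.40 CPM with CIF2 and 2.32, 2.90 and 2.16 CPM without. The groups were separate, and the gene rose in 3 of 3 batches at both times (log2 fold changes 1.12 ± 0.17 and 1.64 ± 0.17, edgeR adjusted *P* = 6.7e-06 and 4.3e-10), although without batch 2 the log2 fold change at 120 min was 0.96, just under the threshold of 1. At 30 min, the time point of the choice, it had 14.9, 14.5 and 12.4 CPM with CIF2 against 4.23, 4.24 and 5.69 CPM without. The effect of AT5G52750 in *cif1 cif2* did not differ between time points beyond its error, the log2 difference to the 30 min effect being −0.43 at 120 min (95% interval −0.91 to 0.04) and −0.13 at 480 min (−0.60 to 0.34).

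AT5G52710 stood apart in that its untreated level was itself higher at 120 and 480 min than at 30 min. In *cif1 cif2* at 30 min it had 1.21, 0.735 and 0.522 CPM with CIF2 and 0.0330, 0.244 and 0.0732 CPM without. The groups did not overlap, and the gene rose in 3 of 3 batches, with a log2 fold change of 2.75 ± 0.53 (edgeR, adjusted *P* = 0.00016), or 1.93 with batch 1 left out (adjusted *P* = 0.057). At 120 min it had 3.07, 5.61 and 2.21 CPM with CIF2 against 2.90, 2.48 and 1.45 CPM without, which overlapped (log2 fold change 0.66 ± 0.25, adjusted *P* = 0.075). After 480 min the gene had 1.28, 1.06 and 1.45 CPM with CIF2 and 0.660, 0.575 and 0.809 CPM without, separate groups whose log2 fold change of 0.87 ± 0.35 did not pass the test (adjusted *P* = 0.12). The CIF2 effect was smaller at 120 than at 30 min (log2 difference −2.09 ± 0.61, edgeR adjusted *P* = 0.031). This difference was −0.95 without batch 1 (adjusted *P* = 0.56), and its adjusted *P* was 0.11 without batch 3 and 0.088 without the batch block.

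In wild type AT5G52710 had 21, 19 and 7 counts with CIF2 at 30 min, against 0, 1 and 0 without peptide. Against a floor of 3 counts per library this is at least 4.25-fold higher, and the ratio of the summed counts was 39.8 (95% counting interval 6.80 to 1604); this effect was used for the choice. At 120 min the gene had 2.45, 1.91 and 1.85 CPM with CIF2 and 1.12, 0.703 and 0.703 CPM without, and at 480 min 0.701, 1.01 and 0.904 CPM with CIF2 and 0.202, 0.587 and 0.284 CPM without. Both pairs of groups were separate, and the gene rose in 3 of 3 batches, with log2 fold changes of 1.32 ± 0.30 (edgeR, adjusted *P* = 0.0020) and 1.33 ± 0.42 (adjusted *P* = 0.035). The call at 480 min was lost without batch 1 (adjusted *P* = 0.18) or batch 3 (adjusted *P* = 0.30), and without the batch block (adjusted *P* = 0.084).

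**Figure D2:**
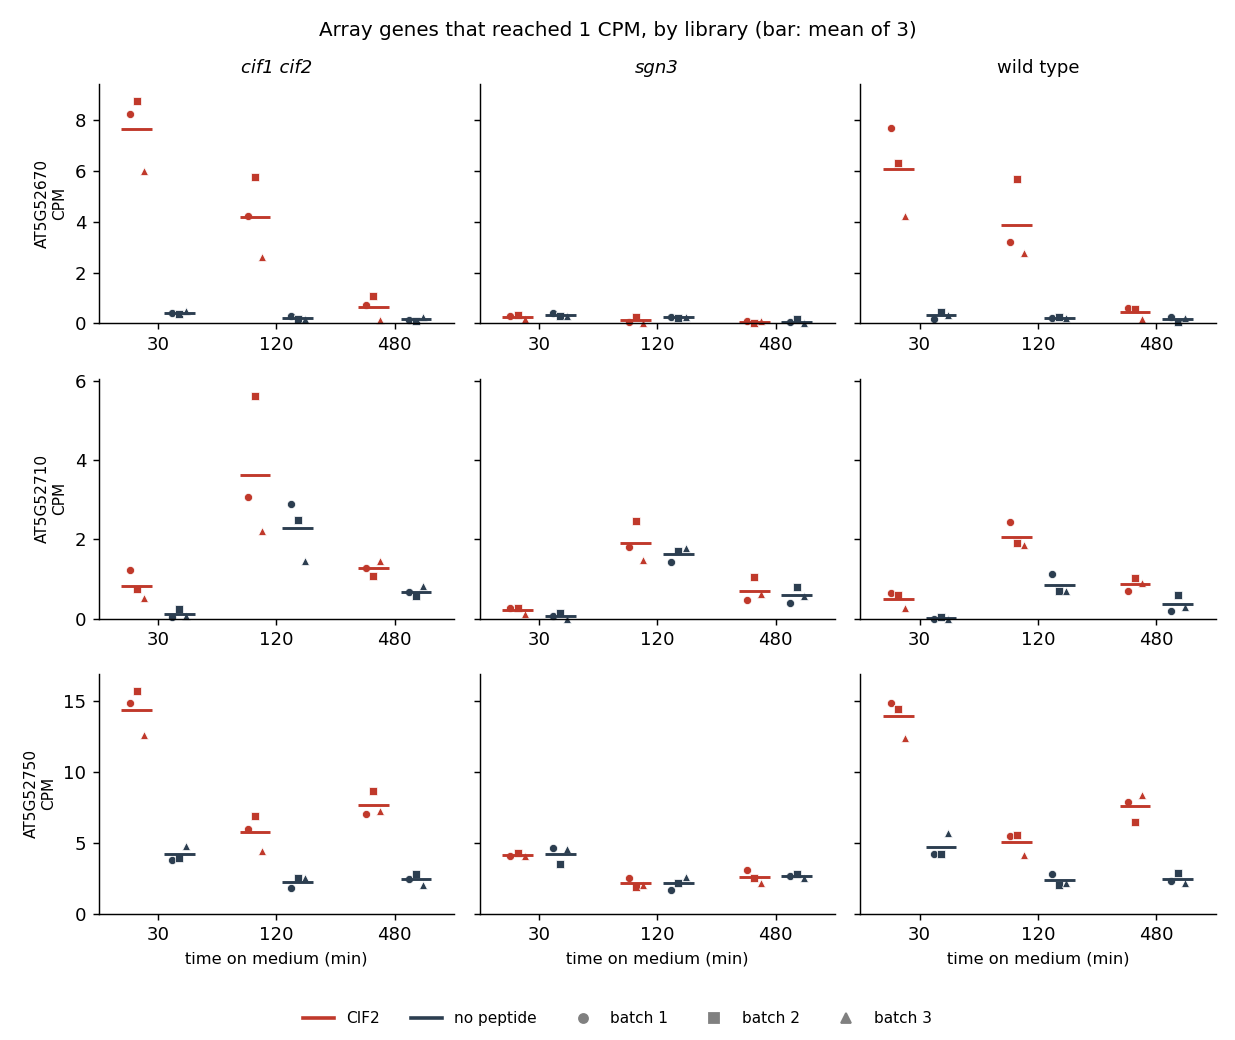
CPM of AT5G52670, AT5G52710 and AT5G52750 (rows) in every library, by genotype (columns) and time on medium in min, with CIF2 in red and without peptide in dark; symbols mark the batch and bars the mean of 3 libraries. AT5G52670 was high only in CIF2-treated *cif1 cif2* and wild-type roots at 30 and 120 min, AT5G52710 had its highest mean at 120 min in every genotype, with and without peptide, and AT5G52750 was above its untreated level at all times in *cif1 cif2* and wild type.

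In all, 3 of the 3 genes tested rose with CIF2 in *cif1 cif2* at 30 min, 2 at 120 min (AT5G52670 and AT5G52750) and the same 2 at 480 min, and none fell. Of all genes tested, 1.81%, 1.77% and 2.12% were called higher with CIF2 in *cif1 cif2* at those times. In wild type 3 rose at 120 min and 2 (AT5G52710 and AT5G52750) at 480 min, beside 1.25% and 1.93% of all genes. At 30 min in wild type, the contrast that the choice used, the 3 genes were not tested, and 1.14% of all genes were called higher. Since a gene such as AT5G52670 passed the filter only where it was high, these counts describe the genes and do not measure how often array genes respond.

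Of the 3 genes, 0 were called different in CIF2 effect between *cif1 cif2* and wild type at 120 or 480 min, beside 0.29% and 0.00508% of all genes called in either direction. Of these 6 differences 0 had an unadjusted *P* under 0.05 in edgeR, and limma-trend and DESeq2 also called 0. Of the 19668 genes tested, 1082 and 575 were under 0.05 at 120 and 480 min. The interval of the difference, *cif1 cif2* minus wild type, was −1.05 to 1.46 at 120 min for AT5G52670, −1.46 to 0.14 for AT5G52710 and −0.28 to 0.74 for AT5G52750. At 480 min it was −1.05 to 2.20, −1.60 to 0.67 and −0.48 to 0.51 for the same genes, and of these intervals only those of AT5G52750 lay within a log2 change of 1 at both times.

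In *sgn3* no CIF2 effect on an array gene passed the test. AT5G52670 had 0.275, 0.337 and 0.178 CPM with CIF2 at 30 min, against 0.416, 0.280 and 0.287 CPM without. AT5G52750 had 4.09, 4.27 and 4.03 CPM with CIF2 at 30 min, against 4.60, 3.50 and 4.60 CPM without. These groups overlapped, and the treated AT5G52670 libraries of *sgn3* lay under the 6.0 to 8.71 CPM of treated *cif1 cif2*. Over the 3 time points AT5G52750 had log2 fold changes of −0.04 ± 0.17, −0.06 ± 0.20 and −0.03 ± 0.18 in *sgn3*, with intervals of −0.38 to 0.30, −0.47 to 0.34 and −0.41 to 0.34. For AT5G52670 the log2 fold changes were −0.33 ± 0.52 at 30 min and −1.07 ± 0.66 at 120 min. At 480 min it had 3, 1 and 3 counts with CIF2 and 2, 6 and 0 without, too few for a fold, and over all times 40 counts with CIF2 and 59 without.

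AT5G52710 was the exception in size, though not by the test. In *sgn3* it had 8, 7 and 3 counts with CIF2 at 30 min, against 2, 4 and 0 without, higher in each of the 3 batches but with overlapping groups. The ratio of summed counts was 3.22 (95% counting interval 1.23 to 9.92, which covers counting error only). The log2 fold change was 1.63 ± 0.81 (95% interval −0.01 to 3.27; edgeR, adjusted *P* = 0.70). It stood at 0.16 ± 0.28 after 120 min and 0.25 ± 0.38 after 480 min. Of the 3 genes, 0 were called in *sgn3* at 30, 120 and 480 min, beside 0.0254%, 0.0% and 0.0% of all genes called higher. In these 9 tests 0 had an unadjusted *P* under 0.05 in edgeR, and limma-trend and DESeq2 called 0. Of the 19668 genes tested, 1401, 578 and 1017 were under 0.05 at those times.

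The difference between the genotypes was then tested directly. The CIF2 effect at 120 min was smaller in *sgn3* than in wild type for AT5G52670 (log2 difference −5.08 ± 0.78, edgeR adjusted *P* = 2.3e-05) and for AT5G52750 (−1.19 ± 0.27, adjusted *P* = 0.0045), in 3 of 3 batches for both. For AT5G52750 the adjusted *P* at 120 min was 0.22 without batch 2 and 0.072 without batch 3. The effect at 480 min was smaller for AT5G52750 (−1.67 ± 0.25, edgeR adjusted *P* = 6.4e-06), also in 3 of 3 batches. Of all genes tested, 2.36% and 3.57% had a smaller effect in *sgn3* at 120 and 480 min. AT5G52710 did not pass at either time (−1.16 ± 0.41, adjusted *P* = 0.15, and −1.08 ± 0.58, adjusted *P* = 0.41), and for AT5G52670 at 480 min the counts in *sgn3* were too low to give a difference (edgeR, adjusted *P* = 0.60). At 30 min the differences contain the wild-type effect that the choice used, and stood at −4.52 ± 0.66 for AT5G52670 and −1.59 ± 0.22 for AT5G52750.

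**Figure D3:**
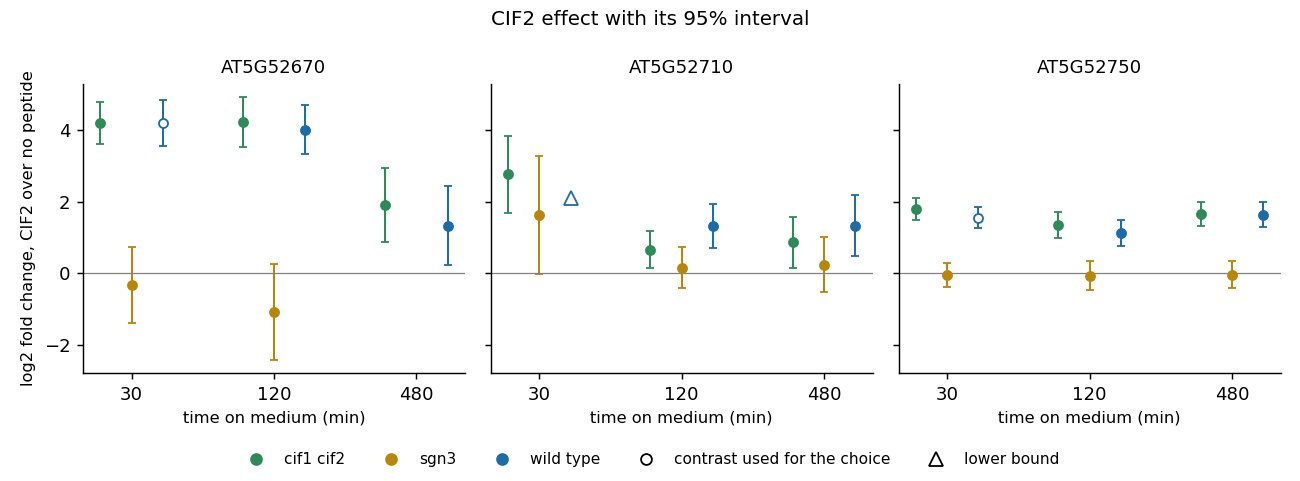
Log2 fold change of CIF2 over no peptide for the 3 tested genes at 30, 120 and 480 min in *cif1 cif2*, *sgn3* and wild type, with the 95% interval of the edgeR fit; open circles are the wild-type effects at 30 min, the contrast used for the choice, the open triangle is a lower bound against 3 counts, and AT5G52670 in *sgn3* at 480 min is left out because no treated library had more than 3 counts. The *sgn3* points of AT5G52750 lay at −0.04, −0.06 and −0.03, and those of *cif1 cif2* between 1.35 and 1.79.

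In untreated roots AT5G52710 changed with time. In *cif1 cif2* it had 1, 8 and 2 counts after 30 min, then 84, 68 and 45 after 120 min, then 17, 16 and 24 after 480 min. In *sgn3* the counts at the same times were 2, 4 and 0, then 33, 41 and 71, then 13, 28 and 15. In wild type they were 0, 1 and 0, then 29, 22 and 27, then 6, 15 and 8. Every library at 120 min was above every library at 30 min of the same genotype, and the mean level at 120 min was 19.5 times that at 30 min in *cif1 cif2*, 24.7 times in *sgn3* and at least 7.08 times in wild type against the floor of 3 counts.

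Between 480 and 30 min, the pair of times that was tested, AT5G52710 rose in untreated *cif1 cif2* (log2 fold change 2.49 ± 0.55, edgeR adjusted *P* = 0.00047) and in untreated *sgn3* (3.06 ± 0.64, adjusted *P* = 0.00019), in 3 of 3 batches each. In untreated wild type it was at least 3.01-fold higher against the floor. The untreated wild-type libraries at 30 min are those of the effect that the choice used, so the wild-type values between times are given with no test. AT5G52670 went the other way, with 2, 6 and 0 counts at 480 min and 14, 8 and 8 at 30 min in *sgn3* (log2 fold change −1.95 ± 0.65, adjusted *P* = 0.018); this call was lost without the batch block (adjusted *P* = 0.060), without batch 1 (0.26) and without batch 3 (0.085). It did not pass in *cif1 cif2* (−1.28 ± 0.55, adjusted *P* = 0.077), and its value in wild type was −0.94 ± 0.60. AT5G52750 was lower at 480 than at 30 min in *cif1 cif2* and *sgn3* (log2 fold changes −0.78 ± 0.18 and −0.68 ± 0.17, edgeR adjusted *P* = 0.00067 and 0.0021), both times by less than the fold change threshold, and its value in wild type was −0.95 ± 0.18. Of all genes 5.43%, 5.78% and 7.11% were called between 480 and 30 min in untreated *cif1 cif2*, *sgn3* and wild type. Time since transfer and hour of the day cannot be told apart in this design.

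Between untreated mutants and untreated wild type there was 1 call among 18 tests of the 3 genes. AT5G52710 had 2.90, 2.48 and 1.45 CPM in untreated *cif1 cif2* at 120 min, against 1.12, 0.703 and 0.703 CPM in untreated wild type, which did not overlap. The gene was higher in *cif1 cif2* in 3 of 3 batches (log2 difference 1.44 ± 0.30, edgeR adjusted *P* = 0.013), where 0.0814% of all genes were called in either direction. The call was lost without batch 2 (adjusted *P* = 0.26) or batch 3 (adjusted *P* = 0.11), without the batch block (adjusted *P* = 0.10) and under limma-trend (adjusted *P* = 0.053). In untreated *sgn3* at 120 min the gene had 1.44, 1.69 and 1.79 CPM, also above all wild-type libraries, but the log2 difference of 1.03 ± 0.32 did not pass the test (adjusted *P* = 0.52). The treated levels at 120 min had means of 3.63 ± 1.8 CPM in *cif1 cif2*, 1.92 ± 0.50 CPM in *sgn3* and 2.07 ± 0.33 CPM in wild type (SD, n = 3 each).

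None of the 3 genes was called at the other times in untreated *cif1 cif2* (0.0915% and 0.0559% of all genes at 30 and 480 min) or at any time in untreated *sgn3* (0.0508%, 0.0508% and 0.0559% at 30, 120 and 480 min). The 30 min comparisons share the untreated wild-type libraries with the effect that chose the genes. Of the 18 tests, these 30 min comparisons included, 4 had an unadjusted *P* under 0.05 in edgeR. The 30 min part of this count is not independent of the choice. Of the 19668 genes tested, 2261, 3682 and 2396 were under 0.05 in untreated *cif1 cif2* at 30, 120 and 480 min. In untreated *sgn3* 2652, 969 and 2015 were. For AT5G52750 the interval of the difference between untreated mutant and wild type stayed between −0.52 and 0.50 in all 6 comparisons, and for AT5G52670, with at most 14 counts per untreated library, it was as wide as −2.56 to 0.56.

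The CIF2 effect changed with time in *cif1 cif2* for AT5G52710 (120 against 30 min) and AT5G52670 (480 against 30 min), as given above, beside 5.97% and 7.35% of all genes called in either direction at 120 and 480 min. The make-up of the array's counts differed between times. In *cif1 cif2* with CIF2, AT5G52670 took 32.1%, 30.5% and 6.88% of the counts of all 6 genes after 30, 120 and 480 min, AT5G52710 took 3.50%, 26.3% and 12.8%, and AT5G52750 took 60.4%, 41.8% and 78.0%. In untreated *cif1 cif2* the share of AT5G52670 stayed between 4.49% and 8.72%. The 6 genes together summed to 23.8 ± 3.5 CPM with CIF2 at 30 min in *cif1 cif2*, against 4.85 ± 0.48 CPM without, and to 21.2 ± 3.5 CPM with CIF2 in wild type, against 5.19 ± 0.80 CPM without (SD, n = 3 each).

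AT5G52720, closest in protein to AT5G52670 among the chosen genes and the gene that shares its 36-base run, was also counted mostly with CIF2, at low counts. In *cif1 cif2* at 30 min it had 13, 18 and 7 counts with CIF2 and 0, 0 and 1 without, at least 4.53-fold higher against the floor of 3 counts per library; the ratio of summed counts was 41.0 (95% counting interval 6.93 to 1662). Its counts at 480 min were 10, 8 and 0 with CIF2 and 0 in all 3 libraries without, which is at least 1.75-fold higher on average although the groups overlapped. The treated library of batch 3 at 480 min had 0 counts, the same library in which AT5G52670 was at its untreated level. At 120 min in *cif1 cif2* the groups overlapped, at 2, 6 and 3 counts with CIF2 and 5, 2 and 2 without.

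In wild type AT5G52720 had 6, 6 and 4 counts with CIF2 at 120 min, against 0, 1 and 0 without, at least 1.81-fold higher (ratio of summed counts 16.7, 95% counting interval 2.59 to 700). Its counts at 480 min were 9, 10 and 2 with CIF2 and 0 in all 3 libraries without, at least 2.23-fold higher. These groups did not overlap, while those at 30 min did, at 11, 6 and 2 counts with CIF2 and 1, 3 and 0 without. In *sgn3* the gene had 2 counts over the 9 treated and 2 over the 9 untreated libraries, too few for a fold. In a fit without the low-count filter, in which 27659 genes were tested, AT5G52720 was called higher with CIF2 in *cif1 cif2* at 30 and 480 min (edgeR, adjusted *P* = 4.3e-05 and 0.0037) and in wild type at 120 and 480 min (adjusted *P* = 0.021 and 0.0014). The shares of all genes given elsewhere belong to the filtered fit and do not apply to calls of this fit.

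AT5G52760, closest in protein to AT5G52750 among the chosen genes, was counted almost only at 30 min. In *cif1 cif2* it had 15, 15 and 11 counts with CIF2 at 30 min and 6, 5 and 0 without, a ratio of 4.02 (95% counting interval 2.03 to 8.68; adjusted *P* = 0.0082 in the edgeR fit without the filter). In wild type it had 20, 20 and 10 counts with CIF2, against 1, 5 and 1 without. In both genotypes the groups were separate, and at 120 and 480 min no library of any genotype had more than 2 counts, with or without CIF2. In *sgn3* at 30 min it had 9, 6 and 3 counts with CIF2 and 6, 1 and 1 without, higher in each of the 3 batches but with overlapping groups. The ratio was 2.42 (95% counting interval 1.0 to 6.43), with an adjusted *P* of 0.91 in the edgeR fit without the filter. AT5G52740 had 1 count in 2 of the 54 libraries, both treated with CIF2 for 30 min, in *cif1 cif2* batch 1 and wild type batch 2, and nothing can be compared at that level.

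**Figure D4:**
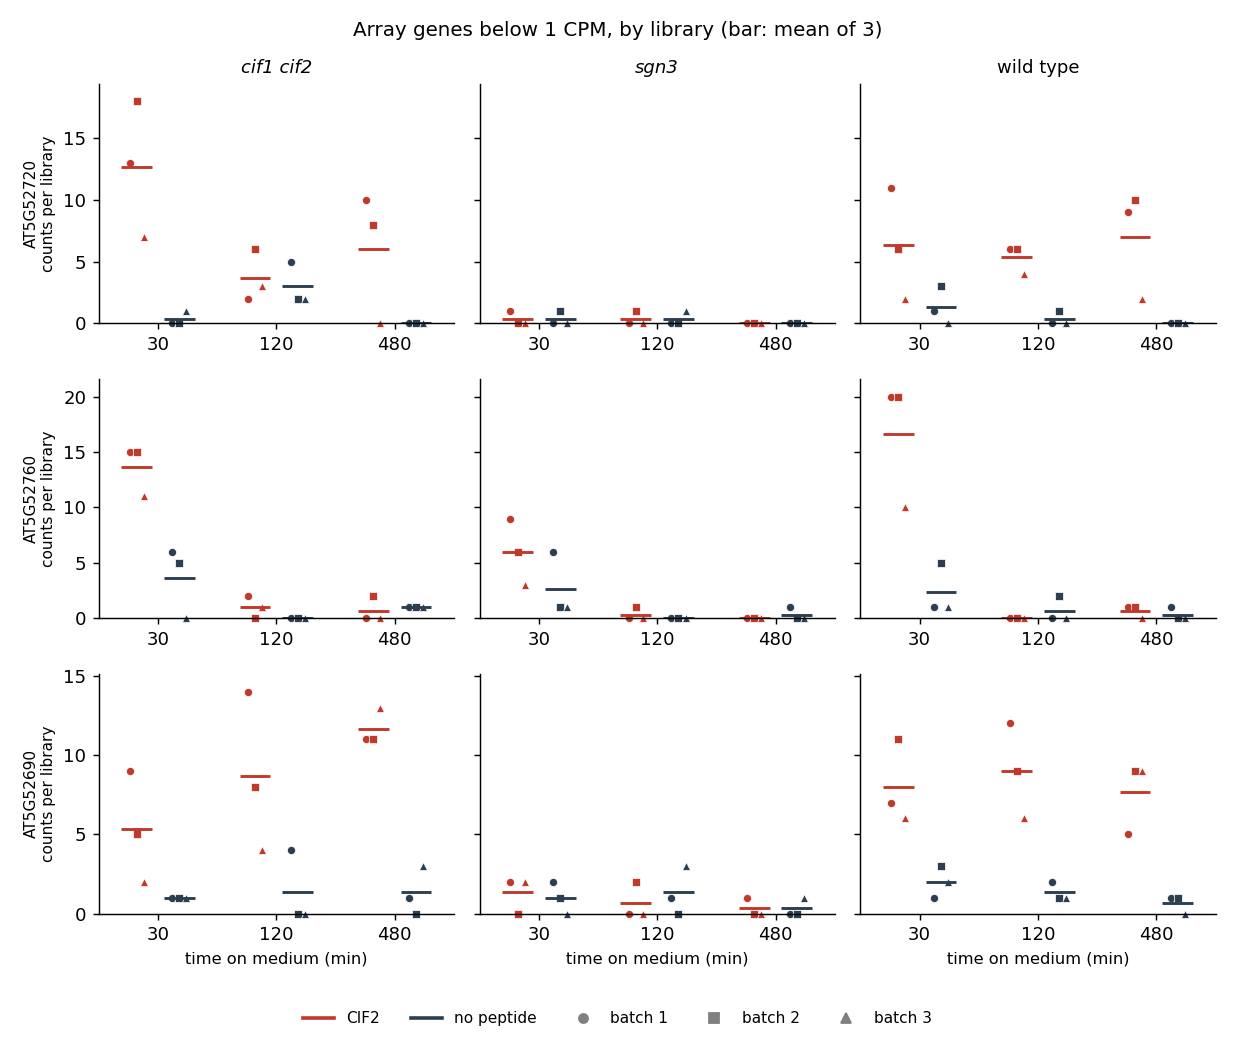
Counts per library of AT5G52720, AT5G52760 and the neighbour AT5G52690 (rows) by genotype (columns) and time on medium in min, with CIF2 in red and without peptide in dark; symbols mark the batch and bars the mean of 3 libraries. AT5G52760 reached 20 counts at 30 min and no more than 2 later, while AT5G52720 and AT5G52690 had counts with CIF2 in *cif1 cif2* and wild type also at 480 min, and at most 3 in any *sgn3* library.

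Of the 5 array genes that were not chosen, AT5G52690 had the clearest counts with CIF2. In *cif1 cif2* it had 11, 11 and 13 counts with CIF2 at 480 min, against 1, 0 and 3 without, at least 3.77-fold higher, and in wild type 5, 9 and 9 against 1, 1 and 0, at least 2.32-fold higher. The batch 3 library that was low for AT5G52670 and AT5G52720 had the highest of these counts. Over all times the gene had 77 counts with CIF2 and 11 without in *cif1 cif2*, 7 and 8 in *sgn3*, and 74 and 12 in wild type. In the fit without the filter AT5G52690 was called higher with CIF2 at 120 and 480 min in both *cif1 cif2* (edgeR, adjusted *P* = 0.0072 and 0.0025) and wild type (adjusted *P* = 0.012 and 0.011), and not in *sgn3*.

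AT5G52680 had 25 counts with CIF2 and 9 without in *cif1 cif2*, 14 and 14 in *sgn3*, and 31 and 9 in wild type. In *cif1 cif2* at 30 min AT5G52680 had 3, 6 and 4 counts with CIF2 and 2, 0 and 0 without, which was called in the fit without the filter (edgeR, adjusted *P* = 0.035). AT5G52700 had 5 counts in the 54 libraries, and AT5G52730 and AT5G52770 had 0. Outside the array, the homeodomain-like gene AT5G52660 upstream had 15.3 CPM on average, and its log2 fold changes with CIF2 lay between −0.17 and 0.13 with none called. AT5G52790 downstream, which encodes a CBS domain protein with a DUF21 domain, was lower with CIF2 in wild type, with 18.8, 14 and 16.9 CPM at 120 min against 40.6, 28.9 and 30.3 CPM without. Its log2 fold change in wild type was −1.0 ± 0.19 at 120 min and −1.50 ± 0.19 at 480 min, both called, while in *cif1 cif2* it was 0.10 ± 0.20 and −0.74 ± 0.20 (adjusted *P* = 0.81 and 0.0072), neither past both thresholds. The effects of AT5G52790 in *cif1 cif2* and wild type did not pass the test of their difference (edgeR, adjusted *P* = 0.073 and 1.0), and *cif1 cif2* without peptide had less of its RNA than untreated wild type at 30 and 120 min (log2 difference −1.25 at both, adjusted *P* = 0.00013 and 0.00028). AT5G52655 and AT5G52780, with 73 and 59 counts in all, were too low to test.

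Other genes of the same fold and of metal handling were examined as lists. Of 58 soluble heavy-metal-associated domain genes outside the array, 40 were tested, and 0 were called at 30 or 120 min in *cif1 cif2* or wild type. Of all genes tested, 1.81% and 1.77% were called higher at those times in *cif1 cif2*, and 1.14% and 1.25% in wild type. With 40 genes in the list, 0 calls was close to these shares. At 480 min 2 rose in both genotypes, AT3G25855 (log2 fold change 2.16 in *cif1 cif2* and 1.78 in wild type) and AT1G29000 (1.44 and 1.15), beside 2.12% and 1.93% of all genes called higher, whose effects at 30 min were −0.12 and 0.25, and −0.14 and 0.15. Over the 8 comparisons that did not choose the array genes, 66 of the 320 tests of this list (20.6%) had an unadjusted *P* under 0.05 in edgeR, beside 15.8% of the tests of all genes, and limma-trend and DESeq2 also called 4. The median log2 fold change of the list lay between −0.04 and 0.03 over all 9 CIF2 effects, where that of all genes lay between −0.02 and 0.01.

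Of 8 heavy-metal P-type ATPases, the zinc exporter *HMA2* fell in *cif1 cif2* at 480 min (log2 fold change −1.05 ± 0.18, edgeR adjusted *P* = 2.6e-05), beside 70 of the 19668 genes tested called lower. Its value in wild type at that time was −0.27 ± 0.18 (adjusted *P* = 0.41). At 120 min *HMA2* was lower in both genotypes, by less than the fold change threshold. The log2 fold change was −0.69 ± 0.20 in *cif1 cif2* and −0.71 ± 0.20 in wild type (edgeR, adjusted *P* = 0.013 and 0.012). Of the COPT copper transporters 5 of 6 were tested, of the metallothioneins 4 of 7, and 0 were called in either list. In no CIF2 effect were more than 2.12% of all genes called higher, and lists this short cannot show a share below that. In their 40 and 32 tests over the same 8 comparisons, 3 (7.5%) and 3 (9.4%) had an unadjusted *P* under 0.05 in edgeR. Limma-trend and DESeq2 called 0 in both lists. For the ATPases 17 of 64 tests (26.6%) were under 0.05, beside 15.8% of the tests of all genes. Of 18 genes of salicylic acid response and synthesis, 13 were tested. Of these 4 rose with CIF2 in *cif1 cif2* at 30 min, among them *FMO1* (1.97), an enzyme of systemic acquired resistance, and the transcription factors *SARD1* (2.22) and *CBP60G* (1.31), 0 at 120 min and 1 at 480 min (*FMO1*, 2.85), beside 1.81%, 1.77% and 2.12% of all genes called higher. In wild type 3 rose at 30 min, among them *FMO1* (1.78) and *SARD1* (1.73), 1 at 120 min (*SARD1*, 1.27) and 2 at 480 min (*FMO1*, 3.36, and *SARD1*, 1.39), beside 1.14%, 1.25% and 1.93% of all genes, and 0 in *sgn3*. Over the 8 comparisons, 32 of the 104 tests of the salicylic acid genes (30.8%) had an unadjusted *P* under 0.05 in edgeR. Over the 9 CIF2 effects the median log2 fold change lay between −0.15 and 0.09 for the ATPases, −0.11 and 0.17 for the COPT genes, −0.10 and 0.33 for the metallothioneins and 0.00 and 0.59 for the salicylic acid genes.

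The 3 tested genes were not alike over the 18 groups. The Pearson correlation of their mean log2 CPM was 0.82 between AT5G52670 and AT5G52750, 0.22 between AT5G52670 and AT5G52710 and −0.08 between AT5G52710 and AT5G52750, over groups that share libraries' batches and the 30 min groups of the choice. Over the same group means, the genes with the pattern closest to AT5G52670 were *CYP82C3*, a cytochrome P450 (0.97), *DGK2*, a diacylglycerol kinase that makes phosphatidic acid (0.97), and AT3G15518 (0.97). Closest to AT5G52710 were AT1G27020 (0.97), AT4G01350 (0.96) and AT5G38540, a mannose-binding lectin family gene (0.96). Closest to AT5G52750 were AT3G52710 (0.98), *ERO1*, an oxidase of protein folding in the endoplasmic reticulum (0.96), and AT1G53110 (0.96). No array gene was among them, but of the array only these 3 tested genes could have been.

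The libraries held 21328819 to 38588050 counts on genes (median 28866174), and no library had more than 20 counts for any of the genes given as counts. *SGN3* itself had 19.9 to 46.4 CPM in *sgn3* and 105 to 290 CPM in wild type. The 6 endodermis markers were counted in every library and summed to 699 to 1523 CPM with CIF2 and 524 to 725 CPM without in *cif1 cif2*, to 431 to 722 and 432 to 658 CPM in *sgn3*, and to 697 to 1227 and 583 to 946 CPM in wild type; their part in the results was not tested. The 7 green tissue markers summed to 14.9 to 46.5 CPM over all libraries, with 4 of them counted in every library, and the 2 root hair markers to 116 to 244 CPM.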

How the data were processed

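The authors deposited raw counts per gene (htseq-count 0.9.1) after cleaning the reads with Cutadapt 1.8, fastq_screen and reaper and aligning them with STAR 2.5.3a to TAIR10; the strand setting is not given in the sources used here. The deposited counts cover 34262 genes, and the 5 lines for reads not assigned to a gene (4.72% to 5.15% of a library) were left out.

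The 28 comparisons were drawn from a single edgeR 4.0.16 quasi-likelihood fit (R 4.3.3) of all 54 libraries, with terms for 18 groups and 3 batches and TMM scaling. A gene entered when 1 library or more reached 1 CPM, which 19668 did, and *P*-values were adjusted over them in each comparison. Calls between groups needed an adjusted *P* of 0.05 or less together with a log2 change of 1 or more in either direction, and differences between effects the adjusted *P* alone. The batch number of the titles served as the pairing, as in the study's model. Deviations from group means correlated at 0.27 on average within a batch (394 of 459 pairs over 0.1) and at −0.13 between batches. No source says how the plants of the 3 libraries were kept apart beyond the batch. The *P*-values measure the spread among the libraries of a group that remains after the batch term. Where no library of a group exceeded 3 counts, folds are lower bounds against 3 counts per library, and the 95% counting intervals (Clopper-Pearson) cover counting error only.

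Gene models, promoters and coding sequences come from RefSeq TAIR10.1, read with Biopython 1.88, in which all 6 genes matched by locus; the protein alignments were made from their translations. Alternatives were limma-trend (limma 3.58.1), DESeq2 1.42.0, DESeq2's size factors, no low-count filter, 1 CPM in 3 libraries, no batch block, only the libraries of a comparison, other thresholds, and leaving out each batch or the 3 libraries with conflicting labels. Named beside the 6 genes are the array and the 3 genes on each side, the 3 closest patterns of each tested gene (log2 CPM, prior count 2), and up to 3 called genes of each list. The genes, lists and tests were chosen with earlier results of these data known.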

Additional observations from a re-analysis of the deposited data

Results flagged for a closer look

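The CIF2 effect differed between genotypes by a test of the difference itself for 2 genes. It was smaller in *sgn3* than in wild type for AT5G52670 at 120 min (log2 difference −5.08 ± 0.78, edgeR adjusted *P* = 2.3e-05), and for AT5G52750 at 120 min (−1.19 ± 0.27, adjusted *P* = 0.0045) and at 480 min (−1.67 ± 0.25, adjusted *P* = 6.4e-06). Within *cif1 cif2* the effect differed between times for AT5G52670, with 480 minus 30 min at −2.28 ± 0.72 (adjusted *P* = 0.041), and for AT5G52710, with 120 minus 30 min at −2.09 ± 0.61 (adjusted *P* = 0.031). The single treated *cif1 cif2* library of batch 3 at 480 min was at 3 counts for AT5G52670 and 0 for AT5G52720, yet at 36 for AT5G52710, 179 for AT5G52750 and 13 for AT5G52690. All 3 libraries of that group, not only this one, have conflicting labels.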

How the results depend on the processing

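The counts of calls with CIF2 in *cif1 cif2* (7 of 9 tests), *sgn3* (0 of 9) and wild type (5 of 6, without 30 min), and of a smaller effect in *sgn3* (3 of 6), stayed within 1.5 times under all alternatives. The call between untreated mutants and wild type was lost (0) under limma-trend, without the batch block and at an adjusted *P* of 0.01, with 0 to 1 when a batch was left out, and DESeq2 gave no adjusted *P* there. The 2 shifts with time in *cif1 cif2* were lost (0) without the batch block, with only the libraries of the comparison and at an adjusted *P* of 0.01, with 0 to 2 when a batch was left out. The 4 calls between untreated 480 and 30 min, of which AT5G52710 in wild type rests on libraries that the choice used, became 7 with no fold change threshold and 0 with only the libraries of the comparison, in which AT5G52670 and AT5G52710 did not reach the filter. Without the batch block, AT5G52670 (480 minus 30 min in *cif1 cif2*, −2.21; untreated *sgn3*, −1.92) and AT5G52710 (wild type at 480 min, 1.31; untreated *cif1 cif2* at 120 min, 1.45; 120 minus 30 min, −2.05) were no longer called, and the pairing changed no other call of a gene. With limma-trend AT5G52670 in *cif1 cif2* at 480 min was not called (1.29, adjusted *P* = 0.053); DESeq2 also called AT5G52670 in untreated *cif1 cif2* (−1.31), and both tools called the smaller AT5G52710 effect at 480 min (−1.53 and −1.94). The causes were not tested.

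Signs turned only for values that were not called, and those of AT5G52670 in *sgn3* at 480 min are fitted to at most 3 counts per treated library. For AT5G52670 these were *sgn3* at 480 min (0.10 under limma-trend), untreated *sgn3* at 30 min (−0.00070 with DESeq2's size factors, −0.0023 with 1 CPM in 3 libraries) and 120 minus 30 min in *cif1 cif2* (−0.12 under limma-trend), and for AT5G52750 *sgn3* at 120 min (0.0019 under limma-trend). With each batch left out in turn, the log2 values of AT5G52670 ranged from −0.86 to 1.35 in *sgn3* at 480 min and from −2.84 to 0.63 for its difference to wild type, from −0.29 to 0.053 and −0.17 to 0.40 for untreated *cif1 cif2* at 120 and 480 min, from −0.47 to 0.36 and −0.062 to 0.25 for untreated *sgn3* at 30 and 120 min, and from −0.16 to 0.22 for 120 minus 30 min. AT5G52710 ranged from −0.037 to 0.44 in *sgn3* at 120 min. AT5G52750 ranged from −0.17 to 0.050, −0.31 to 0.16 and −0.19 to 0.037 in *sgn3* at 30, 120 and 480 min, from −0.0026 to 0.37 and −0.17 to 0.13 for *cif1 cif2* minus wild type at 120 and 480 min, from −0.18 to 0.23 and −0.072 to 0.027 for untreated *cif1 cif2* at those times, from −0.31 to 0.19 for untreated *sgn3* at 120 min, and from −0.41 to 0.012 for 480 minus 30 min. The CIF2 effect in *cif1 cif2* at 480 min has no value without the libraries with conflicting labels. Depth limits AT5G52720, AT5G52740 and AT5G52760, which had at most 20 counts in a library.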
